A study of Mus musculus with 8 samples.

Results

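The homeostatic microglia genes are 9 genes used to recognise microglia of the undisturbed brain, P2ry12, P2ry13, Tmem119, Cx3cr1, Fcrls, Siglech, Sall1, Gpr34 and Olfml3. They were chosen by symbol, and each had 1 row among the 23401 genes of the series-wide table of TPM (transcript abundance per length, scaled to the same total in every library). The RNA came from mouse cells labelled astrocytes, kept in a conventional culture (CV) or in a culture labelled MGS, letters that the labels do not explain. The sample descriptions call CV hard and MGS soft. RNA was taken on day 5 and on day 32, which gave 4 groups of 2 libraries. The sources used here give neither strain, age nor any sorting of the cells, nor the origin of the replicates. The p-values thus cover no more than library-to-library spread, which could be technical. The labels give no treatment beyond culture and day.

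Microglia are the resident macrophages of the brain. In healthy tissue they keep a set of genes on, called homeostatic, many of which encode surface receptors for nucleotides, lipids or chemokines. This state is known to need signals from the surrounding brain, such as TGF-beta and the ligands of the CSF1 receptor, and it is known to fade in culture and in injured tissue. Cultures of astrocytes commonly carry some microglia, and sequencing of bulk RNA reads both cell types together.

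The libraries held 2.15 to 4.69 gigabases of aligned sequence, and the CV libraries were the shallower ones, at 2.15 to 2.99. All 10 astrocyte markers were detected, with a summed level of 14460 to 17620 TPM in MGS and 1740 to 4091 in CV. Most of the sum in MGS was Gfap, with a mean of 13730 TPM at day 5 and 9588 at day 32. In CV its means were 1599 and 753.7. At day 5, 5 of the 10 were called higher and 1 lower in MGS (limma adjusted p under 0.05), beside 22.5% and 26.4% of all genes. At day 32, 9 were called higher and 1 lower, beside 52.8% and 14.8%. The summed level of 19 pan-myeloid genes, which microglia share with other macrophages, was 1265 to 1292 TPM in MGS at day 5 and 84.07 to 86.79 in CV at day 5. At day 32 it was 1620 to 1652 in MGS and 19120 to 20590 in CV. In bulk RNA fewer cells of a type and less RNA per cell cannot be told apart, so every level below is that of the whole culture. Replicate 1 of CV at day 32 was low for long transcripts. Its log2 level minus that of replicate 2 had a median of 0.024 in the shortest of 4 length bins and -0.597 in the longest. A trend with length also lay between the cultures, in opposite directions at the 2 days. The median of MGS minus CV over genes went from -0.021 in the shortest bin to 1.175 in the longest at day 32, and from 0.062 to -0.39 at day 5. Calls that changed without that replicate or after a correction for transcript length are given beside the results.

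Of the 9 genes, 8 passed the filter of at least 1 TPM in at least 2 of the 8 libraries, among 14904 genes tested, and Siglech did not. Fcrls was the highest per transcript length, at 605 and 642 TPM in CV at day 32, and P2ry13 and Gpr34 were the lowest, at no more than 4.07 TPM in any library. Of the 8 genes, 5 had the same order of groups, lowest in CV at day 5, then MGS at day 5, then MGS at day 32 and highest in CV at day 32. They were P2ry12, P2ry13, Cx3cr1, Fcrls and Olfml3, although the means of MGS at day 5 and at day 32 lay close for Olfml3 and those of the day 32 groups lay within their spread for P2ry13. Gpr34, Tmem119 and Sall1 had other orders. Fold changes are given as differences of log2(TPM + 1), a scale that makes changes of low genes look smaller, with the standard error (SE) of a model fitted across all genes with limma, and p-values are adjusted by Benjamini-Hochberg over all genes tested.

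**Figure D1:**
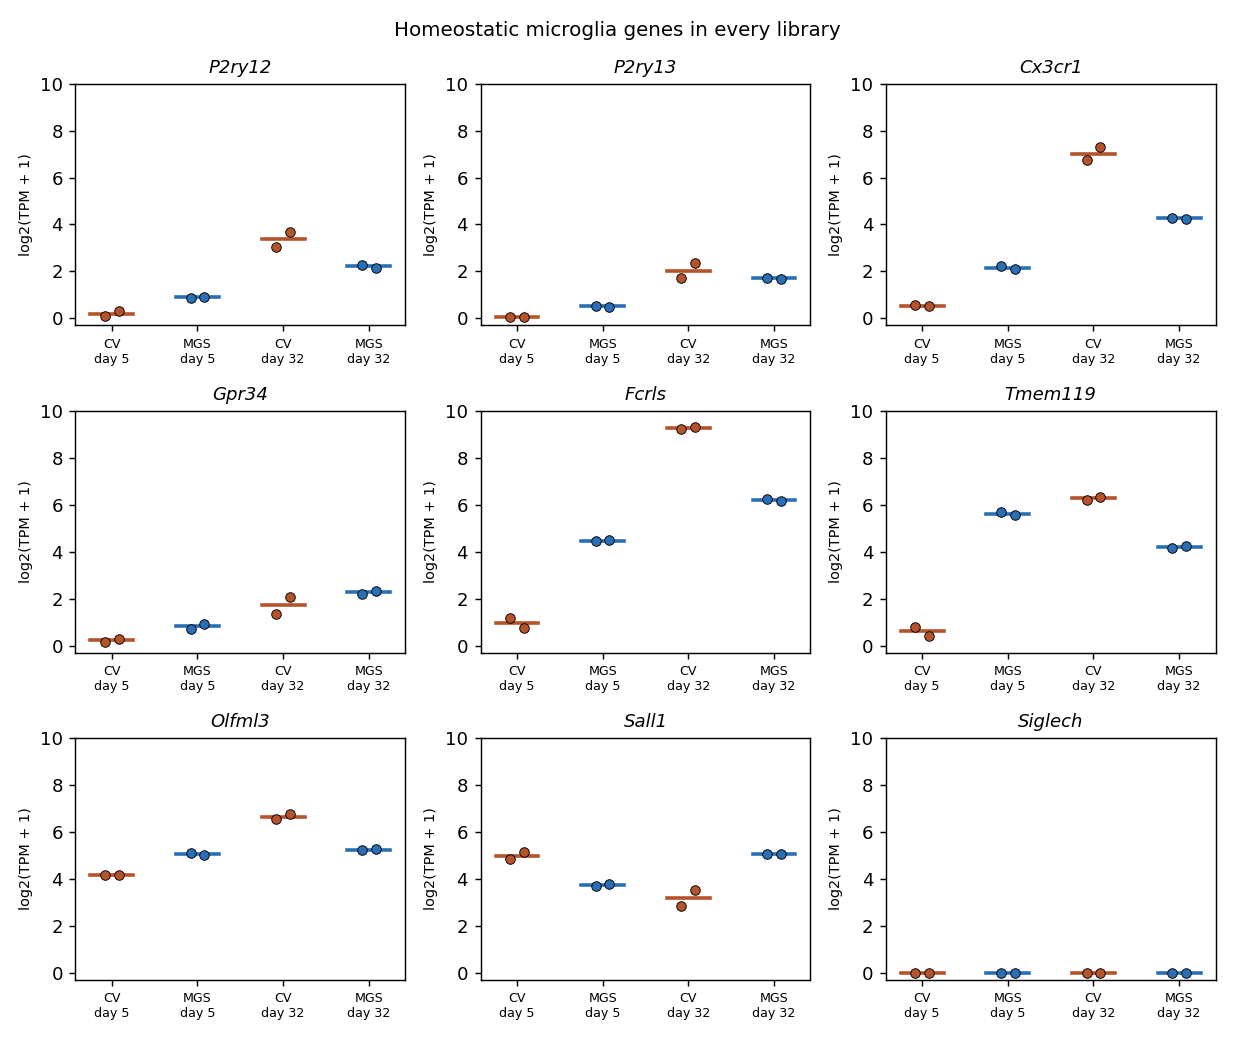
Level of the 9 homeostatic microglia genes in each library, as log2(TPM + 1), by culture and day. Points are libraries and bars are group means (n = 2); Sall1 is the 1 gene lowest in CV at day 32, and Siglech is listed at 0 in all 8 libraries.

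P2ry12 and P2ry13 encode receptors for ADP, and through that of P2ry12 microglial processes find sites of injury. P2ry12 stood at 0.852 and 0.876 TPM in the MGS libraries and 0.069 and 0.238 in the CV libraries of day 5, and at 3.86 and 3.45 in MGS and 7.24 and 11.9 in CV at day 32. The groups did not overlap at either day, and the culture with the higher level was MGS at day 5 and CV at day 32. The log2 difference of MGS minus CV was 0.70 (SE 0.22, limma adjusted p = 0.0308) at day 5 and -1.15 (SE 0.22, adjusted p = 0.00256) at day 32. The call at day 5 rests on very low levels, with a mean coverage of 0.095 and 0.258 reads per base in the CV libraries. It was lost when any 1 of the 6 libraries outside the group of CV at day 32 was left out (limma adjusted p from 0.056 to 0.131) and with quantile normalization (0.17, adjusted p = 0.305).

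P2ry13 was lower than P2ry12 in every library. It stood at 0.462 and 0.405 TPM in MGS and 0.043 and 0.055 in CV at day 5, and at 2.31 and 2.20 in MGS and 2.32 and 4.07 in CV at day 32. The MGS libraries of day 5 were the higher ones, and at day 32 replicate 1 of CV lay next to the MGS libraries. Neither difference passed the test, with 0.45 (SE 0.19, limma adjusted p = 0.0874) at day 5 and -0.33 (SE 0.19, adjusted p = 0.155) at day 32. Without replicate 1 of CV at day 32 the latter was -0.64 and was called (limma adjusted p = 0.00328), and it was called lower in MGS as well after a correction for transcript length (-0.67, adjusted p = 0.00537), after median-of-ratios scaling (-0.78), with quantile normalization (-1.32) and with FPKM (-0.47). The difference at day 5 also depends on the settings. It was called higher in MGS with a pseudocount of 0.1 (1.84, adjusted p = 0.00282) or 0.5 (0.77, adjusted p = 0.0291), after median-of-ratios scaling (adjusted p = 0.0161), after the length correction (adjusted p = 0.0176), with only the groups of day 5 fitted (adjusted p = 0.0077) and without either library of CV at day 32 (adjusted p = 0.00616 and 0.00598). With quantile normalization it had the other sign, at -0.024.

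Both receptor genes lie side by side on the minus strand of chromosome 3, P2ry13 at 59207894 to 59210882 and P2ry12 at 59216271 to 59262831 (mm10), and both lie inside Med12l, a Mediator subunit gene on the plus strand. Whether strand was used in the counting was not given in the sources used here, so reads of Med12l and of the receptors may not be fully separated. Med12l stood at 8.80 and 8.95 TPM in MGS and 0.420 and 0.831 in CV at day 32, a log2 difference of 2.61 (SE 0.20). That is the opposite direction to P2ry12. P2ry14, the receptor for UDP-glucose, was highest in MGS at day 5, at 2.30 and 2.34 TPM.

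Across the 8 libraries P2ry12, P2ry13, Cx3cr1 and Fcrls moved closely together, with Pearson correlations of log2(TPM + 1) from 0.93 to 0.99 for the 6 pairs, as a description over libraries that also share culture, day and depth. The sequence before the start site of P2ry13 is shown because it holds the short ETS core GAGGAA, given in capitals. ETS factors such as PU.1 (gene Spi1, Sfpi1 in the files), the master regulator of macrophages, bind purine-rich sites of this kind. The run holds the 250 bases before the RefSeq start in GRCm38.p6, chr3:59210883-59211132, 5′ to 3′ on the minus strand, on which the gene lies.
P2ry13: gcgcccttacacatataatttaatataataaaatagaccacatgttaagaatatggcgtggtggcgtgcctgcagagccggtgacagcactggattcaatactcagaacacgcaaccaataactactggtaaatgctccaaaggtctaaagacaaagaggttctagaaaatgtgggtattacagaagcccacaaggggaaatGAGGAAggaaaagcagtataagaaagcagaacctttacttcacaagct
The RefSeq table of such windows holds 9 windows of 7 homeostatic genes. The core was found, on either strand, in 2 of these 9, that of P2ry13 at 48 bases and of Fcrls at 144 bases before the start. It was in 23.3% of all 32851 windows of this kind, a share near that of the homeostatic genes. The longer PU.1 core GAGGAAGT, which contains it, was in 0 of the 7 genes and in 2.44% of all windows. The SMAD palindrome GTCTAGAC (0.167% of all windows) was also in 0 of the 7. These matches describe letters in this window and nothing beyond them.

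Cx3cr1 (chromosome 9, 120048683 to 120068296, minus strand) encodes the receptor for fractalkine, the chemokine through which neurons address microglia. It stood at 3.63 and 3.26 TPM in MGS and 0.478 and 0.445 in CV at day 5, and at 18.6 and 18.0 in MGS and 106 and 155 in CV at day 32. MGS was the higher culture at day 5 and CV at day 32, with no overlap at either day. The log2 difference of MGS minus CV was 1.60 (SE 0.20, limma adjusted p = 0.000508) at day 5 and -2.74 (SE 0.20, adjusted p = 2.36e-05) at day 32. Cx3cl1, the gene of the ligand, was higher in CV at both days, at 149 and 158 TPM against 33.9 and 33.0 at day 5 and at 96.0 and 139 against 42.4 and 44.9 at day 32. Its log2 differences were -2.17 (SE 0.17) and -1.39 (SE 0.17).

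Gpr34, a receptor for the lipid lysophosphatidylserine, was the 1 measured receptor without a higher mean in CV at day 32. It stood at 0.638 and 0.913 TPM in MGS and 0.115 and 0.219 in CV at day 5, and at 3.599 and 4.05 in MGS and 1.545 and 3.25 in CV at day 32. The MGS libraries lay above the CV libraries at both days, but neither difference passed the test, at 0.60 (SE 0.23, limma adjusted p = 0.0671) and 0.55 (SE 0.23, adjusted p = 0.069). The difference at day 5 was called higher in MGS in 8 of 19 alternatives, among them a pseudocount of 0.1 (1.73, limma adjusted p = 0.0113), median-of-ratios scaling (adjusted p = 0.0172), the replicate block (adjusted p = 0.024), the length correction (adjusted p = 0.0271) and leaving out either library of CV at day 32 (adjusted p = 0.00555 and 0.00541). Without replicate 2 of CV at day 32 the difference at day 32 was 0.92 and called higher in MGS (limma adjusted p = 0.00142), and with the replicate block it was called too (adjusted p = 0.0254), while with quantile normalization it was -0.44 and called lower (adjusted p = 0.0341). Its direction at day 32 therefore depends on the scaling. The gene (chromosome X, 13632769 to 13640858, plus strand) lies inside Cask, a scaffold kinase gene on the other strand at 12.8 to 28.4 TPM, and also inside rows of model genes that are listed at 0.

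Fcrls, which encodes an Fc receptor-like scavenger protein of microglia (chromosome 3, 87250965 to 87263524, minus strand), had the widest span of the 9 genes. It stood at 20.7 and 21.4 TPM in MGS and 1.28 and 0.666 in CV at day 5, and at 73.8 and 71.1 in MGS and 605 and 642 in CV at day 32. The log2 difference of MGS minus CV was 3.50 (SE 0.16, limma adjusted p = 4.19e-06) at day 5 and -3.09 (SE 0.16, adjusted p = 5.23e-06) at day 32. No libraries of the cultures overlapped at either day. Its nearest gene on the side of higher coordinates, the macrophage gene Cd5l, had a different course, at 18.8 and 21.9 TPM in MGS at day 5, 0 in both CV libraries of that day and 0.884 to 1.42 in the libraries of day 32.

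Tmem119, a transmembrane protein gene used as a microglia marker and also known from bone-forming cells (chromosome 5, 113793729 to 113800352, minus strand), parted from the receptors in MGS. It stood at 49.9 and 46.0 TPM in MGS and 0.731 and 0.337 in CV at day 5, and at 17.1 and 18.2 in MGS and 71.6 and 80.5 in CV at day 32. MGS was the higher culture at day 5, by 5.01 on the log2 scale (SE 0.17, limma adjusted p = 1.19e-06), and CV at day 32, where MGS minus CV was -2.05 (SE 0.17, adjusted p = 4.39e-05). It was the only one of the 8 tested genes that was called lower with time in MGS under TPM as deposited. The level of Tmem119 in MGS at day 5 was 611 and 666 TPM per 100 TPM of Csf1r, the CSF1 receptor of macrophages, against 36.3 and 36.7 in MGS at day 32. In the same MGS libraries of day 5 the 9 meningeal fibroblast markers summed to 12090 to 13980 TPM, against 353.9 to 377.3 in CV at day 5, 13650 to 13660 in MGS at day 32 and 326.5 to 459.5 in CV at day 32. Their part in the level of Tmem119 was not tested.

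Siglech encodes a sialic acid-binding lectin of microglia and plasmacytoid dendritic cells (chromosome 7, 55768178 to 55778833, plus strand). It was listed at 0 in all 8 libraries, with a coverage of 0. In all, 4821 of the 23420 gene IDs (20.6%) were listed at 0 in every library, and an exact 0 in such files can also be a failed estimate. Other genes of its family were measured in the same libraries. At day 32 Cd33 stood at 6.69 and 6.79 TPM in MGS and 6.67 and 10.1 in CV, and Siglec1, sialoadhesin, at 11.4 and 12.6 in MGS and 5.97 and 15.5 in CV.

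Olfml3 encodes a secreted olfactomedin-like glycoprotein (chromosome 3, 103735394 to 103738001, minus strand). It was measured in CV at day 5 at 17.0 and 16.7 TPM, where most of the other genes were near 0, and in MGS at that day at 33.0 and 31.2. At day 32 it stood at 36.6 and 37.3 TPM in MGS and 92.8 and 107 in CV. Per 100 TPM of Csf1r it stood at 440 and 415 in MGS at day 5 and at 77.8 and 75.3 at day 32. In CV the ratio was 1830 and 1260 at day 5, where Csf1r was at 0.93 and 1.32 TPM, and 30.1 and 23.5 at day 32. The part of cells other than microglia in the level of Olfml3 was not tested. The cultures did not overlap, and MGS minus CV was 0.89 (SE 0.12, limma adjusted p = 0.000721) at day 5 and -1.41 (SE 0.12, adjusted p = 4.98e-05) at day 32. Other olfactomedin-like genes did not take this course. Olfml1 was higher in MGS at both days (1.96, SE 0.22, and 2.57, SE 0.22), as was Olfml2a (3.91, SE 0.19, and 5.29, SE 0.19).

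Sall1, a zinc finger transcription factor that among brain macrophages marks microglia and is also known from neural progenitors, went the other way. It stood at 12.025 and 12.7 TPM in MGS and 27.7 and 34.0 in CV at day 5, and at 32.0 and 32.0 in MGS and 6.21 and 10.5 in CV at day 32 (chromosome 8, 89027243 to 89044162, minus strand). CV was the higher culture at day 5 and MGS at day 32, the reverse of P2ry12, Cx3cr1, Fcrls, Tmem119 and Olfml3. The log2 difference of MGS minus CV was -1.25 (SE 0.23, limma adjusted p = 0.00344) at day 5 and 1.86 (SE 0.23, adjusted p = 0.000337) at day 32. Its transcript, of 5265 bases, lies in the longest length bin, and after the length correction the difference at day 32 was 0.89, still called. Across the 8 libraries its correlation with the other tested members ran from -0.77 (Tmem119) to -0.03 (Gpr34). Its paralog Sall3 had the same order of cultures, with -1.65 (SE 0.19) and 1.69 (SE 0.19), and Sall2 stood at 1.51 (SE 0.17) at day 32. Neural progenitor markers moved with it only in part. Of 7, 4 were called lower and 1 higher in MGS at day 5, beside 26.4% and 22.5% of all genes. At day 32, 4 were called higher and 3 lower, beside 52.8% and 14.8%. Their summed level was lower in MGS at both days, at 2471 to 2523 TPM against 5108 to 5235 at day 5. At day 32 it was 2164 to 2305 against 2848 to 2902. Nes, Fabp7 and Pax6 were called lower in MGS at both days. The neural stem cell factor gene Sox2 had the order of Sall1. It stood at 142 and 155 TPM in MGS and 247 and 315 in CV at day 5. At day 32 it stood at 306 and 318 in MGS and 81.0 and 164 in CV. The part of progenitors in the level of Sall1 was not tested.

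Set side by side, the homeostatic genes were mostly higher in MGS at day 5 and mostly higher in CV at day 32. At day 5, 5 of the 8 tested genes were called higher in MGS (Tmem119, Fcrls, Cx3cr1, Olfml3 and P2ry12) and 1 lower (Sall1), where 22.5% of all genes were called higher and 26.4% lower, 48.9% in all. The median of the 8 log2 differences was 0.79, beside -0.14 over all genes tested. At day 32 the same 5 genes were called lower in MGS and Sall1 higher, where 52.8% of all genes were called higher and 14.8% lower, 67.6% in all, with a median of -1.28 beside 0.56. At day 32 that median of all genes was -0.011 after median-of-ratios scaling, under which 49.8% of calls in the whole table were higher in MGS instead of 78.0%. The directions of these 6 genes at day 32 held under every scaling tried.

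**Figure D2:**
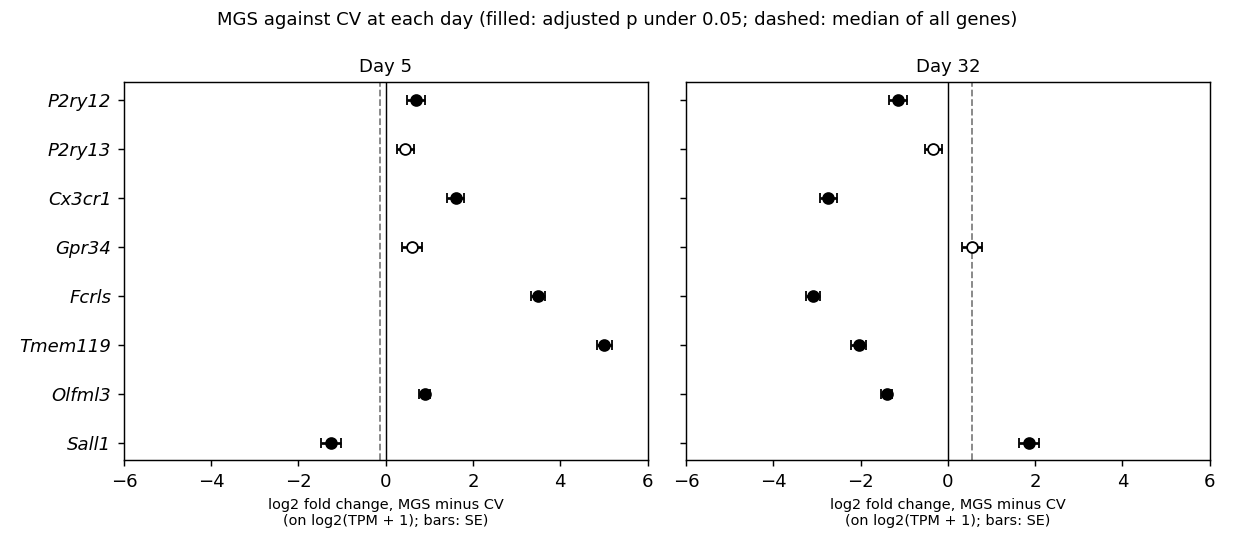
Difference of MGS minus CV for the 8 tested genes at each day, on the log2(TPM + 1) scale, with the SE of the limma model (2 libraries a group). Filled points passed the test; P2ry12, Cx3cr1, Fcrls, Tmem119 and Olfml3 lie right of 0 at day 5 and left of it at day 32, and Sall1 does the opposite. The dashed line is the median of all genes, -0.142 at day 5 and 0.558 at day 32.

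With time in CV, 7 of the 8 tested genes were called higher at day 32 than at day 5 and Sall1 lower, where 16.0% of all genes were called higher and 37.7% lower, 53.7% in all. Fcrls rose by 8.32 on the log2 scale (SE 0.16, limma adjusted p = 2.38e-07), Cx3cr1 by 6.46 (SE 0.20) and Tmem119 by 5.66 (SE 0.17), while P2ry12 rose by 3.16 (SE 0.22), P2ry13 by 1.97 (SE 0.19) and Gpr34 by 1.496 (SE 0.23). Sall1 fell by 1.80 on the log2 scale (SE 0.23), and by 1.16 after the length correction. The pan-myeloid genes rose in the same libraries, 19 of 19 called, with a median of 6.77. The sizes for low genes depend on the pseudocount. With 0.1 in place of 1, the rise was 5.29 for P2ry12, 4.42 for P2ry13 and 3.17 for Gpr34.

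In MGS the same interval brought smaller changes. Here 6 genes were called higher and 1 lower at day 32, where 35.0% of all genes were called higher and 7.53% lower, 42.5% in all. Cx3cr1 rose by 2.12 (SE 0.20), Fcrls by 1.74 (SE 0.16), Gpr34 by 1.45 (SE 0.23), P2ry12 by 1.32 (SE 0.22), Sall1 by 1.31 (SE 0.23) and P2ry13 by 1.18 (SE 0.19). After the length correction the rise of Sall1 was 0.66. Tmem119 fell by 1.39 on the log2 scale (SE 0.17, limma adjusted p = 0.00102). Olfml3 stood at 0.20 (SE 0.12, adjusted p = 0.205), and its sign was negative after median-of-ratios scaling (-0.22), with quantile normalization (-0.20), with FPKM (-0.05) and after the length correction (-0.47). After the length correction Olfml3 was called lower (limma adjusted p = 0.0313), although its transcript length is uncertain. With only the MGS groups fitted it was called higher (limma adjusted p = 0.013). Of the pan-myeloid genes 9 of 19 were called higher and 1 lower, with a median of 0.43 beside 0.36 over all genes.

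**Figure D3:**
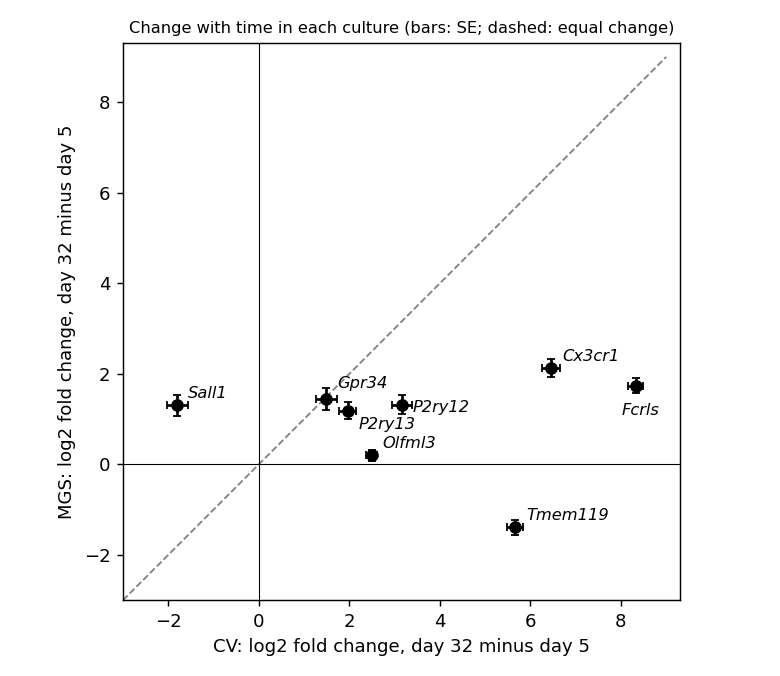
Change from day 5 to day 32 in CV (horizontal) against that in MGS (vertical) for the 8 tested genes, as differences of log2(TPM + 1) with their SE; the dashed line marks equal change. Gpr34 lies on the line (1.496 in CV, 1.445 in MGS), Fcrls, Cx3cr1 and Tmem119 lie far below it, and Sall1 lies above it.

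Whether the difference between cultures itself changed with the day was tested by the interaction of culture and day, in which 6 of the 8 genes were called lower and Sall1 higher, where 12.3% of all genes were called lower and 49.7% higher, 62.0% in all. The change was -7.05 (SE 0.24) for Tmem119, -6.59 (SE 0.23) for Fcrls, -4.34 (SE 0.28) for Cx3cr1, -2.30 (SE 0.17) for Olfml3, -1.84 (SE 0.30) for P2ry12 and -0.78 (SE 0.27, limma adjusted p = 0.0374) for P2ry13. It was 3.11 (SE 0.32) for Sall1, and 1.82 after the length correction. Gpr34 stood at -0.05 (SE 0.33, adjusted p = 0.9), an interval too wide to show that its difference between cultures was equal at both days. The call of P2ry13 was lost in the same way when any 1 of those 6 libraries was left out (limma adjusted p from 0.0835 to 0.102).

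The balance among the members was then set against Csf1r of the same library, as a description with no test, since such a ratio shows unequal change only. At day 32 Cx3cr1 stood at 39.5 and 36.3 TPM per 100 TPM of Csf1r in MGS and 34.3 and 34.0 in CV, and Fcrls at 157 and 143 in MGS and 196 and 141 in CV. At that day these genes thus held nearly the same ratio to Csf1r in both cultures, although Csf1r itself was at 47.1 and 49.6 TPM in MGS and 309 and 455 in CV. P2ry12 stood at 8.20 and 6.96 per 100 TPM of Csf1r in MGS and 2.34 and 2.60 in CV. P2ry13 stood at 4.91 and 4.44 in MGS and 0.751 and 0.894 in CV, and Gpr34 at 7.65 and 8.16 in MGS and 0.5 and 0.713 in CV. All 3 of these receptor genes were lower in CV per Csf1r. This is not particular to them. MGS minus CV at day 32 was -2.93 (SE 0.20) for Csf1r itself, beside a median of 0.56 over all genes. With 14.8% of all genes called lower in MGS, most genes were lower in CV per Csf1r. At day 5 the ratios in MGS were 11.4 and 11.6 for P2ry12, 8.51 and 12.1 for Gpr34 and 6.17 and 5.38 for P2ry13. In CV, where Csf1r was 0.93 and 1.32 TPM, they were 7.39 and 18.0, 12.3 and 16.5, and 4.60 and 4.18. Fcrls stood at 276 and 284 in MGS and 137 and 50.4 in CV at day 5. Cx3cr1 stood at 48.5 and 43.3 in MGS and 51.4 and 33.7 in CV. The ratios of day 5 rest on very low levels of the receptors and, in CV, of all these genes, and no order of the cultures is read from them.

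**Figure D4:**
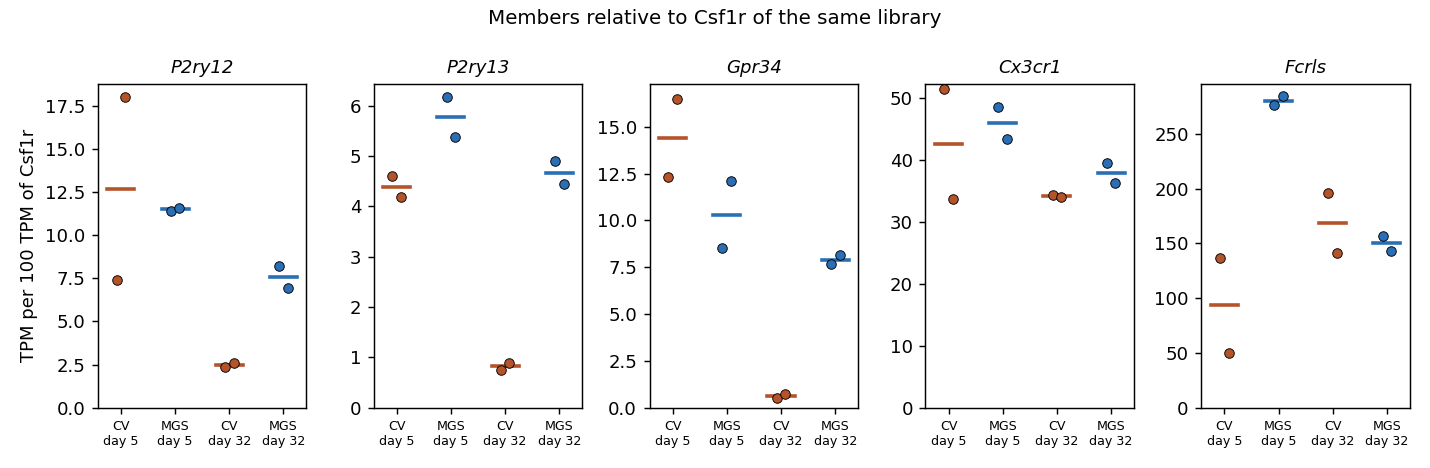
TPM of P2ry12, P2ry13, Gpr34, Cx3cr1 and Fcrls per 100 TPM of Csf1r in each library; points are libraries and bars are group means (n = 2). In CV at day 32 the ratios of P2ry12, P2ry13 and Gpr34 lie below those of MGS, while those of Cx3cr1 and Fcrls lie close to them.

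The same was seen against the mean log2(TPM + 1) of all 19 pan-myeloid genes. Relative to it, at day 32, MGS minus CV was 3.67 for Gpr34, 2.79 for P2ry13, 1.98 for P2ry12, 1.72 for Olfml3, 1.08 for Tmem119, 0.38 for Cx3cr1 and 0.03 for Fcrls, and 4.98 for Sall1. The median of the 8 was 1.85 at day 32 and -2.01 at day 5. The shift of the reference enters these values for every gene. Its mean log2 level was 5.26 and 5.24 in MGS and 8.21 and 8.54 in CV at day 32. At day 5 it was 4.57 and 4.61 against 1.78 and 1.79. A gene equal in both cultures would thus also be higher in MGS at day 32 and lower at day 5. The directions of the medians are not particular to these genes. That of day 5 rests in part on very low levels in CV. Both medians depend on the reference. Against 20 other microglia-enriched genes, which include genes also high in CV at day 5 such as Gpr56, an adhesion receptor, the medians were -0.67 at day 32 and 0.58 at day 5.

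Other genes that microglia use were set beside these levels. The counts of calls in this and the next lists are to be read against the shares over all genes. In MGS at day 5, 22.5% of all genes were called higher and 26.4% lower, and at day 32, 52.8% higher and 14.8% lower. Of 12 macrophage and microglia transcription factor genes, 6 were called higher and 1 lower in MGS at day 5, and 3 higher and 5 lower at day 32. Sfpi1 (PU.1) stood at 17.2 and 16.0 TPM in MGS and 199 and 190 in CV at day 32 (-3.48, SE 0.20), and Irf8, its partner factor, at -3.16 (SE 0.17). These lineage factors were thus lower in MGS at day 32, as Sall1 was not. Mef2c, a factor of microglia also used in neurons and vessels, stood at 0.70 (SE 0.24, limma adjusted p = 0.033).

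Of 16 genes of the signals that maintain microglia, 5 were called higher and 7 lower in MGS at day 5, and 6 higher and 5 lower at day 32. The ligand gene Csf1 was higher in CV at both days (-1.80, SE 0.19, and -0.74, SE 0.19), and Il34, the other ligand of Csf1r, was higher in MGS at day 5 (0.92, SE 0.16) and stood at 0.06 (SE 0.16, limma adjusted p = 0.767) at day 32. Tgfb1 was higher in MGS at day 5 (2.39, SE 0.15) and lower at day 32 (-1.09, SE 0.15). Tgfb2 stood at 0.19 (SE 0.29, limma adjusted p = 0.619) at day 5 and was higher in MGS at day 32 (2.27, SE 0.29). Itgb8, a subunit of the integrin that activates latent TGF-beta, was lower in MGS at day 5 (-1.94, SE 0.43) and higher at day 32 (4.33, SE 0.43). Lrrc33, which tethers latent TGF-beta on microglia, was higher in MGS at day 5 (1.37, SE 0.15) and lower at day 32 (-1.70, SE 0.15). Tgfbr1, a receptor subunit, did not pass the test at either day (0.12, SE 0.27, and 0.31, SE 0.27). The other subunit gene, Tgfbr2, was higher in MGS at day 5 (1.47, SE 0.25, limma adjusted p = 0.00222). At day 32 Tgfbr2 did not pass (0.385, SE 0.25, limma adjusted p = 0.2).

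Of the 12 tested genes of other nucleotide receptors and nucleotide handling, 5 were called higher and 4 lower in MGS at day 5, and 7 higher and 4 lower at day 32. P2ry6, the UDP receptor of microglial phagocytosis, took the course of P2ry12, with 1.03 (SE 0.22) at day 5 and -2.88 (SE 0.22) at day 32. P2ry1, an ADP receptor of astrocytes, took that of Sall1, with -1.27 (SE 0.23) and 1.42 (SE 0.23). Entpd2, an enzyme that breaks down extracellular ATP, was higher in MGS at both days (4.64, SE 0.14, and 4.14, SE 0.14).

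Macrophage markers of the brain's borders were present beside the homeostatic genes. Of their 9 tested genes, 9 were called higher in MGS at day 5, and 3 were called higher and 4 lower at day 32. Mrc1, the mannose receptor, stood at 45.9 and 46.2 TPM in MGS and 13.2 and 27.3 in CV at day 32 (1.23, SE 0.30), while Ms4a7 stood at 20.6 and 17.9 in MGS and 155 and 177 in CV (-3.04, SE 0.23) and Clec12a at -4.25 (SE 0.14). Cd163, a defining marker, was at no more than 0.2 TPM in any library. Of 15 tested genes of disease-associated microglia, 7 were called higher and 1 lower in MGS at day 5, and 1 higher and 10 lower at day 32, with Spp1, osteopontin, at 4.51 (SE 0.12) and -4.11 (SE 0.12). Trem2, a lipid receptor of microglia, stood at 3.56 (SE 0.20) and -3.68 (SE 0.20), and Apoe at 2.71 (SE 0.20) and -0.13 (SE 0.20, limma adjusted p = 0.573). Of 13 matched markers of monocytes, neutrophils and dendritic cells, 2 passed the filter and 5 were at 0 in every library, Ly6c2 and Cd209a among them. The 2 tested were Plac8, at 46.3 and 44.3 TPM in MGS and 0 and 0.701 in CV at day 5 (5.15, SE 0.25) and higher in MGS at day 32 as well (3.01, SE 0.25), and Zbtb46, a dendritic cell factor also known from endothelium, which stood at 0.35 (SE 0.22, limma adjusted p = 0.222) at day 5 and was higher in MGS at day 32 (2.06, SE 0.22). The part of other macrophages in the levels of the homeostatic genes was not tested.

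The genes whose pattern over the 8 libraries was most like that of the mean of the standardised members, by Pearson correlation of log2(TPM + 1) among genes with at least 5 TPM in 1 group, were Adam11 (0.994), Fyb (0.994), 1600014C10Rik (0.992), Col14a1 (0.991), Xlr3b (0.99), Trafd1 (0.989), Tcta (0.989), Sirpa (0.988), Emr1 (0.988) and Trim30a (0.987). Emr1 encodes the macrophage marker F4/80, Fyb an adaptor of blood cells and Sirpa an inhibitory receptor of myeloid cells. For Cx3cr1 alone the most alike was Csf1r (0.999), for Fcrls Dnase1l1 (0.999) and then Rgs1 (0.998), and for P2ry13 Sirpa (0.999). Those of Tmem119 were led by Pycard (0.997) and held Twist1 (0.995), a mesenchymal transcription factor, and those of Gpr34 held the border macrophage gene Mrc1 (0.988). For Sall1 they were Fndc1, Trim32, Pcdh1, Cep152 and Trim37 (0.998 to 0.997). With 4 groups behind 8 libraries such values are high for many genes.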

How the data were processed

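RNA was sequenced from 8 libraries, 2 in each of 4 groups given by the sample titles. The submitters' processing notes list HISAT2 2.1.0, StringTie 1.3.4d and, with no roles, hg38 and mm10. The sources used here do not give the annotation or the use of strand. The authors deposited coverage, FPKM and TPM per gene row and library, per the file headers, and a TPM table of the series. TPM rows of 1 gene ID were summed, which gave 23420 gene IDs; the values of the 9 genes equalled those of the series table. Coverage divided by FPKM gave the aligned gigabases. TPM keeps no depth, so no counting interval is given, and the spread of 2 replicates is the error. limma 3.58.1 in R 4.3.3 fitted 4 group means to log2(TPM + 1) of 14904 genes (at least 1 TPM in 2 libraries), with trended moderation, 4 residual degrees of freedom, two-sided tests and calls at an adjusted p under 0.05; it was first tested on simulated data. An exact permutation test of 2 against 2 libraries cannot give a p below 0.333, so none was made. FPKM, other scalings, filters, pseudocounts, a replicate block and leaving out each library were alternatives, and the length correction was added after seeing the data. The members and lists were chosen with earlier results of these data known. The text names the 9 members, overlapping and neighbouring genes, up to 6 of the highest genes of each list with a few fixed ones, and 10 genes of like pattern for the mean and 5 for each member; Siglec1, P2ry1, Tgfb2, Itgb8, Lrrc33, Ly6c2 and Cd209a fall outside that rule and were chosen after their values were seen. Spi1, Nrros and Adgrg1 were matched by RefSeq synonym as Sfpi1, Lrrc33 and Gpr56. Promoters are from RefSeq (GRCm38.p6), where 7 of the 9 genes matched. A few genes under this rule are not reported here.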

Additional observations from a re-analysis of the deposited data

Results flagged for a closer look

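For 7 of the 8 tested genes the difference between MGS and CV changed between day 5 and day 32 by the interaction term of the limma model (adjusted p from 5.29e-06 to 0.0374), as it did for 62.0% of all genes tested. The change in the log2 difference was -7.053 for Tmem119, -6.587 for Fcrls, -4.343 for Cx3cr1, -2.297 for Olfml3, -1.842 for P2ry12 and -0.784 for P2ry13, and 3.105 for Sall1. In each case other than P2ry13, whose differences between cultures did not pass the test at either day, the difference was called in opposite directions at the 2 days. In the same libraries the pan-myeloid genes changed in the direction of Tmem119 and Fcrls, 18 of 19 called, with a median of -6.10.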

How the results depend on the processing

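Of 782 log2 differences of single members recomputed under 20 alternatives, 736 kept their direction and their side of the threshold, 13 lost the call, 23 gained one and 10 had the other sign, and for 32 of the 40 pairs of gene and contrast none changed. For Tmem119, Cx3cr1, Fcrls and Sall1 no direction or call changed, but sizes did: Sall1 ranged from 0.885 to 2.195 at day 32 and from 0.662 to 1.366 with time in MGS, and Cx3cr1 at day 5 reached 2.656 with a pseudocount of 0.1. Called values of low genes moved most, P2ry12 at day 5 from 0.166 (quantile normalization) to 2.012 (pseudocount of 0.1) and at day 32 to -2.116 (quantile normalization), P2ry13 in the interaction from -0.478 (without replicate 2 of CV at day 32) to -2.271 (pseudocount of 0.1), and, with time in MGS, P2ry12, P2ry13 and Gpr34 to 0.813, 0.669 and 0.9 with FPKM. The 23 gained calls were of P2ry13 and Gpr34 at both days and of Olfml3 with time in MGS (only those groups fitted, adjusted p = 0.013). The signs that turned were P2ry13 at day 5 (-0.024) and Gpr34 at day 32 (-0.436) with quantile normalization, Olfml3 with time in MGS (-0.222 after median-of-ratios scaling, -0.199 with quantile normalization, -0.05 with FPKM, -0.471 after the length correction), and the near-zero interaction of Gpr34 (0.061, 0.013, 0.016 and 0.318 without 1 library each, in a range of -0.421 to 0.318). The annotated transcript length of Olfml3, 5465 bases, is longer than the locus in the files, so its corrected values are uncertain. Among them are -2.415 at day 32 and the called fall with time in MGS, -0.471 (limma adjusted p = 0.0313). Genes called higher in MGS at day 32 numbered 1 to 2 over the fits without 1 library, and 2 with a replicate block, Gpr34 being the added gene; with time in MGS 2 were called lower after the length correction. Replicate numbers were not shown to pair the libraries, since differences between replicates correlated across genes with r from -0.131 to 0.444 between groups; the block moved the calls at day 5 from 7291 to 7894. Over all genes, calls at day 5 numbered 4523 to 10086 over the fits without 1 library, with time in CV 4830 to 10676 (3483 with only those groups fitted) and with time in MGS 2455 to 9732 (11596). After median-of-ratios scaling the share of calls that were higher was 50.7% instead of 29.8% with time in CV, 49.8% instead of 82.3% with time in MGS and 47.2% instead of 80.1% in the interaction. Relative to myeloid genes the median of MGS minus CV at day 5, -2.01, was -1.56 without Lyz2, Cd14 and C1q, -1.56 with a pseudocount of 0.1, -1.21 against Csf1r alone and 0.58 against the other microglia-enriched genes; at day 32, 1.85, it was 1.68 without those genes, 1.65 against Csf1r and -0.67 against the other list. Under the filter of 5 TPM, P2ry13 and Gpr34 were not tested. Levels near or under 1 TPM, as in CV at day 5, limit P2ry12, P2ry13 and Gpr34.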
